A study of Homo sapiens with 9 samples.

Results

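Cells that run short of amino acids, accumulate unfolded proteins or meet other stresses phosphorylate the translation factor eIF2, which slows protein synthesis in general and favours translation of the transcription factor ATF4. The ATF4 protein and its partners then raise genes for amino acid synthesis and uptake, and also genes that limit the response, among them *PPP1R15A*, whose product brings a phosphatase back to eIF2. Tumor cells, prostate cancer cells among them, are known to draw on this program when nutrients are short. The RNA of 36 genes of this program was examined in 9 RNA-seq libraries: 6 transcription factors, 13 genes of amino acid and one-carbon metabolism, 8 genes of amino acid and tRNA transport, and 9 kinases, feedback genes and stress outputs. They were listed by name from their known roles, with earlier results of these data known. Together they are 36 of the 27902 genes for which a value could be summed.

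The cells were DU145, an established human prostate cancer line, without added drug or nutrient stress in the sample descriptions. In the labels, 3 libraries came from cells carrying a scramble shRNA with the genotype WT, 3 from cells with shRNA FZD6 #1 and 3 from cells with shRNA FZD6 #2. They are called scramble, shRNA1 and shRNA2 here, and the 6 libraries with an *FZD6* shRNA are called knockdown. *FZD6* encodes a Frizzled receptor of Wnt ligands, and the series was designed as a 2-group comparison of knockdown and control. The labels give each group as a triplicate and do not say whether its libraries came from separate cultures, so p-values measure the spread between these libraries, which may be technical. In knockdown against scramble, the spread also holds any difference between the shRNAs. No label gives the infection date or passage, and whether each shRNA line was a pool or 1 clone is not given in the sources used here.

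Values are FPKM, fragment numbers scaled to the length of the transcript and to the size of the library, summed over the transcripts of a gene, so levels of different genes are per length. Depth, estimated from the confidence bounds that accompany the values, was 33.5 to 38.5 M fragments per library in scramble, 34.3 to 40.3 M in the shRNA1 group and 32.2 to 37.8 M in the shRNA2 group. The targeted gene checked the labels: *FZD6* was at 20.5 ± 0.441 FPKM (SD, n = 3) in scramble, 9.83 ± 0.376 with shRNA1 and 8.11 ± 0.598 with shRNA2. Of 7 epithelial markers, 6 were at 1 FPKM or more in all libraries and *KRT5* was below 0.5. *KLK3*, *KLK2*, *TMPRSS2* and *ACP3*, known from luminal prostate cells, were below 0.5 FPKM in all libraries. The summed level of 6 fibroblast markers did not pass 0.491 FPKM in a library, that of 4 endothelial markers did not pass 0.0991, and that of 5 leukocyte markers ranged from 0.678 to 2.215, the highest in shRNA2 replicate 2, where *LYZ* was at 1.14 FPKM. In bulk RNA, fewer cells of a type and less RNA per cell cannot be told apart.

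The ATF4 protein binds, as a dimer with a C/EBP protein, to a composite element whose core reads TGATGNAA (N is any base). This core was searched for on both strands of RefSeq promoter windows (build GRCh38.p14), each running from 250 bases before a transcript start to 50 after it. Windows were listed for 29 of the 36 genes, and *NUPR1*, *PSPH*, *SHMT2*, *ALDH1L2*, *GPT2*, *PYCR1* and *SLC7A11* had none in the table. The core was present in a window of 8 of the 29 genes (27.6%), against 4.46% of all 27305 genes in the table and 2.46% of the 9648 tested ones. Counted by window, it was in 8 of 44 (18.2%) and in 3.62% of all 35116. Since ATF4 targets were listed for what is known of them, this share describes the list and is no result of knockdown. The 5 matches that lie wholly upstream of the start are shown to give the letters around the core. They are not the matches nearest to a start. Each line gives 30 bases on the strand of the gene, with the core, or its reverse complement TTNCATCA, in capitals.
ASNS, chr7:97872458-97872487, minus strand: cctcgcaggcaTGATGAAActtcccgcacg
ATF3, chr1:212565205-212565234, plus strand: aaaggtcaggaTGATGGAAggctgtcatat
CEBPG, chr19:33374060-33374089, plus strand: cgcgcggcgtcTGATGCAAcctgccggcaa
CHAC1, chr15:40953251-40953280, plus strand: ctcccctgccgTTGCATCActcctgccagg
SLC1A5, chr19:46784893-46784922, minus strand: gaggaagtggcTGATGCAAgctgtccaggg
The match in *ASNS* began 68 bases before the start, that in *CEBPG* 42, in *SLC1A5* 97, in *ATF3* 191 and in *CHAC1* 209. In *SLC1A4* the letters overlapped the start, and in *SLC3A2* and *SLC7A1* they lay after it. A match describes letters only, and binding was not measured.

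In control cells these genes spanned from *PSAT1*, an enzyme of serine synthesis at 489 ± 13.8 FPKM (SD, n = 3), and *ATF4* at 362 ± 9.88, down to *NUPR1* at 1.27 ± 0.107 and *GDF15* at 0.540 ± 0.0981. High levels were also seen for *SHMT2* (195 ± 2.01 FPKM), *PHGDH* (183 ± 4.21), *SLC1A5* (165 ± 2.6), *ASNS* (164 ± 3.04), *SLC7A5* (160 ± 3.54) and *SLC3A2* (157 ± 2.16). The ranges of *SLC1A5*, *ASNS* and *SLC7A5* overlapped between libraries, so the order of these 3 is not resolved. That of *SLC3A2* overlapped *SLC7A5* as well, whereas every library of *SHMT2* was above every library of *PHGDH*. Of the 2 sensor kinases on the list, *EIF2AK4*, which senses uncharged tRNA, was at 25.1 ± 0.432 FPKM and *EIF2AK3*, which senses unfolded protein in the endoplasmic reticulum, at 2.93 ± 0.18. All but *GDF15* reached a mean of 1 FPKM over the 9 libraries and were tested. *GDF15*, a secreted stress cytokine, rested on fewer than 38 fragments per library and was at 0.480, 0.654 and 0.487 FPKM in scramble, 0.589, 0.843 and 0.808 with shRNA1 and 0.611, 0.695 and 0.614 with shRNA2, with overlapping groups.

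**Figure D1:**
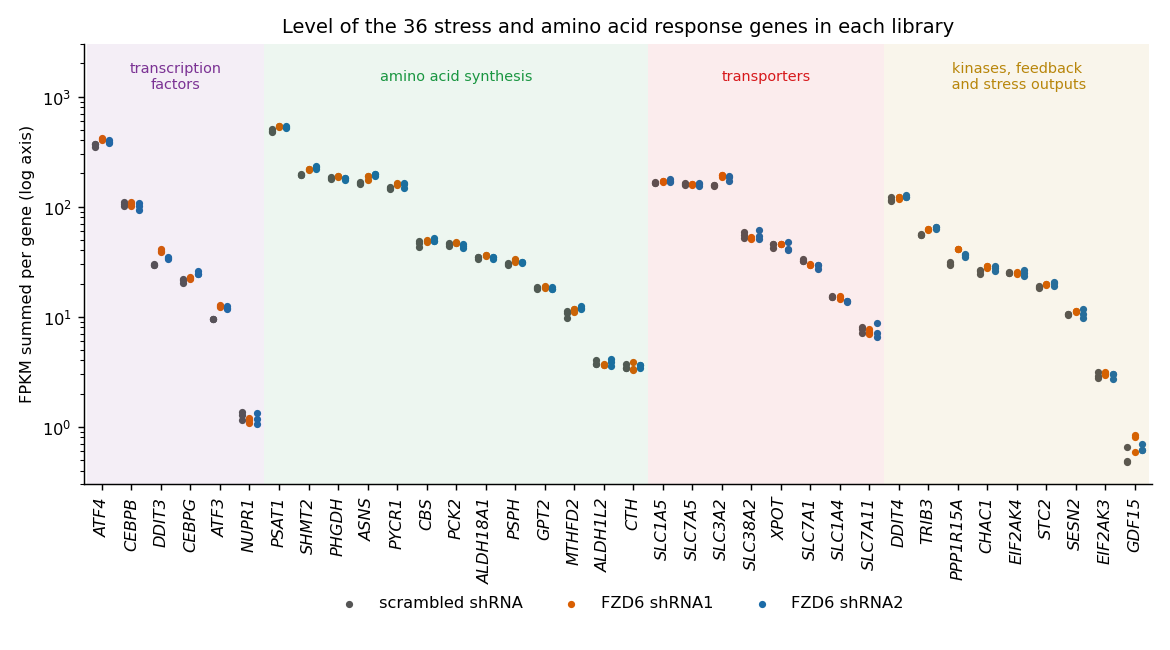
FPKM of the 36 genes (log axis) in each of the 9 libraries, grouped by role and ordered within a role by the scramble mean. Each point is 1 library, and levels run from 0.480 FPKM for *GDF15* to 543 FPKM for *PSAT1*, with differences between groups small beside those between genes.

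Knockdown was compared with scramble to see whether the program moved with loss of *FZD6*. Of the 35 tested genes, 9 rose, 1 fell and 25 did not pass the test (limma, adjusted p under 0.05). Those that rose were *PPP1R15A*, *ATF3*, *DDIT3*, *SLC3A2*, *ASNS*, *SHMT2*, *TRIB3*, *ATF4* and *PSAT1* (−0.02 for *PSAT1* under quantile normalization), and the one that fell was *SLC7A1*. The share passing, 28.6%, stands beside 20.6% of all 12509 tested genes, of which 13.5% rose and 7.1% fell. As earlier results of these data were known when the list was made, the shares are given as a description. The median difference of the 35 genes was 0.06 on the log2(FPKM + 1) scale, on which all differences below are given, and that of all tested genes was 0.03. In 12 genes every knockdown library lay above every scramble library, and in 1 every knockdown library lay below, against 16.4% and 9.46% of all tested genes. Only 3 of the 35 genes, *PPP1R15A*, *ATF3* and *DDIT3*, met the study's own criteria of an unadjusted p under 0.01 and at least a 1.2-fold change, met by 2.89% of all tested genes. The count of 10 fell to 5 without scramble replicate 1 and to 6 without scramble replicate 2, where 9.16% and 7.42% of all genes passed.

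**Figure D2:**
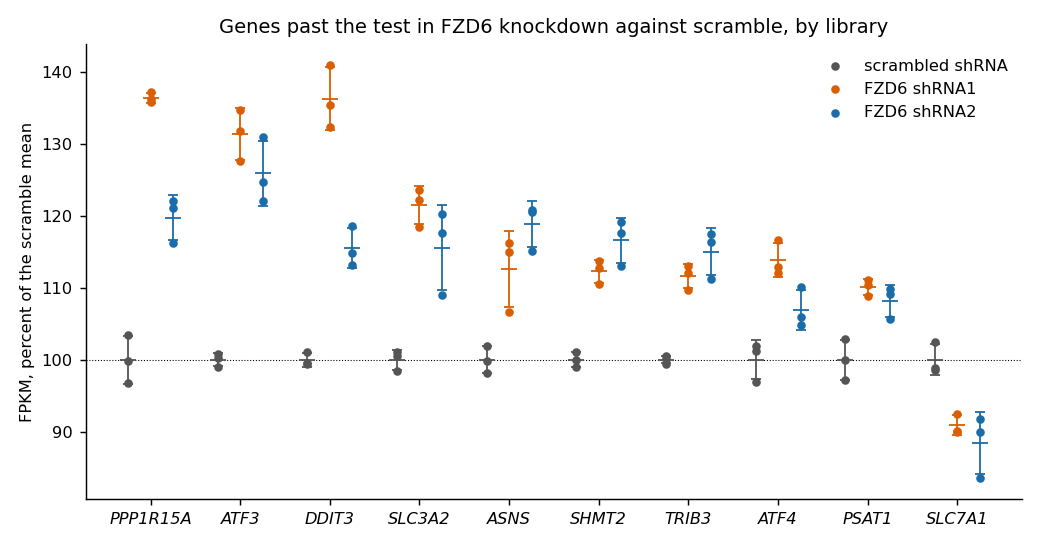
FPKM as a percent of the scramble mean for the 10 genes that passed the test in knockdown against scramble (points: libraries; dash and bars: mean and SD, n = 3 per group). In each of the 10 genes all 6 knockdown libraries lie on 1 side of the 3 scramble libraries. In *PPP1R15A*, *DDIT3* and *ATF4* every shRNA1 library lies above every shRNA2 library, without passing the test between shRNAs in *ATF4*. Values are as deposited, and under quantile normalization the difference of *PSAT1* turned to −0.02.

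Of the 6 transcription factors, *ATF4*, *ATF3* and *DDIT3* rose and *CEBPB*, *CEBPG* and *NUPR1* did not pass the test in knockdown against scramble. *ATF3*, a stress-induced factor that mostly represses, was at 9.55, 9.60 and 9.43 FPKM in scramble, 12.8, 12.5 and 12.2 with shRNA1 and 11.6, 12.5 and 11.9 with shRNA2. All 6 knockdown libraries were above the highest scramble library, and the shRNA groups overlapped. The difference was 0.33 (SE 0.033, adjusted p = 0.00120), and it kept its direction and its call under 19 of 19 alternatives (0.26 to 0.36). *DDIT3*, which encodes CHOP, a factor tied to cell death under prolonged stress, was at 29.8, 29.3 and 29.3 FPKM in scramble, 39.0, 41.5 and 39.9 with shRNA1 and 34.9, 33.4 and 33.8 with shRNA2. The 3 groups did not overlap, and shRNA1 was the highest. The difference over both shRNAs was 0.32 (SE 0.073, adjusted p = 0.0190). This SE holds the difference between the shRNAs, and each shRNA against scramble had an SE of 0.031. The difference over both did not pass when 1 scramble library was left out (adjusted p = 0.0627 without replicate 1, 0.0716 without replicate 2 and 0.0613 without replicate 3).

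*ATF4*, the central factor of the program, was at 369, 351 and 366 FPKM in scramble, 408, 406 and 422 with shRNA1 and 383, 379 and 398 with shRNA2. The libraries of the 3 groups did not overlap, and shRNA1 was again the highest. The difference was 0.14 (SE 0.039, adjusted p = 0.0342), and it did not pass under 11 of 19 alternatives, with values of 0.03 to 0.16. Among these were quantile normalization (0.03, adjusted p = 0.548), the removal of the trend with transcript length (0.05, adjusted p = 0.310), and leaving out any scramble library, any shRNA1 library or shRNA2 replicate 3 (adjusted p of 0.0531 to 0.140). Since the ATF4 protein is controlled chiefly in translation, RNA levels do not show its amount.

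*CEBPG*, a dimer partner of ATF4, was at 20.2, 21.8 and 21.3 FPKM in scramble, 22.1, 22.5 and 22.8 with shRNA1 and 24.3, 26.2 and 24.2 with shRNA2. All knockdown libraries were above scramble, and shRNA2 was the highest. The difference was 0.16 in knockdown (SE 0.055, adjusted p = 0.0727), 0.09 with shRNA1 (adjusted p = 0.179) and 0.23 with shRNA2 (SE 0.041, adjusted p = 0.00714). *CEBPB*, a further partner, was at 106 ± 3.65 FPKM in scramble and 105 ± 4.44 and 100 ± 7.29 with the shRNAs, and *NUPR1*, a stress-induced chromatin protein, was near 1 FPKM in all groups.

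*ATF3* reads were divided by Cufflinks over 6 transcripts, of which 2 held 5% or more of the gene in scramble. NM_001674 was at 7.88 ± 0.162 FPKM in scramble, 9.44 ± 0.165 with shRNA1 and 8.88 ± 0.680 with shRNA2 (SD, n = 3). NM_001040619 was at 1.65 ± 0.226, 3.03 ± 0.266 and 2.70 ± 0.668, and its knockdown libraries, 2.26 to 3.47, were all above its scramble libraries, 1.40 to 1.84. *TRIB3* was divided mainly between NM_001301188, at 26.6 ± 2.07 in scramble, 31.6 ± 7.34 with shRNA1 and 36.95 ± 2.16 with shRNA2, and NM_021158, at 25.2 ± 0.627, 24.1 ± 1.25 and 24.2 ± 0.728. For *DDIT3*, NM_004083 ranged from 21.1 to 28.2 FPKM in shRNA1 libraries while the sum over its transcripts ranged from 39.0 to 41.5, so the split between transcripts varied more than the gene. The transcripts were not tested one by one.

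Of the 13 genes of amino acid and one-carbon metabolism, *ASNS*, *SHMT2* and *PSAT1*, whose sign turned under quantile normalization, rose in knockdown and 10 did not pass the test. By limma 0 fell (0 at an unadjusted p under 0.05), where 7.1% of all tested genes did. By the study's criteria 0 passed, against 2.89% of all tested genes. *ASNS*, which makes asparagine, was at 161, 164 and 167 FPKM in scramble, 175, 190 and 188 with shRNA1 and 189, 197 and 198 with shRNA2. Each knockdown library was above each scramble library, and the shRNA groups overlapped. The difference was 0.21 (SE 0.041, adjusted p = 0.0106), and 0.14 (adjusted p = 0.0573) with the length trend removed. Without scramble replicate 1 it was 0.20 (adjusted p = 0.0501), and with quantile normalization 0.14 (adjusted p = 0.0835). *SHMT2*, which passes a carbon from serine to mitochondrial folate, was at 197, 193 and 195 FPKM in scramble, 222, 215 and 220 with shRNA1 and 229, 220 and 232 with shRNA2. Knockdown and scramble did not overlap, and the difference of 0.19 (SE 0.029, adjusted p = 0.00442) passed under 19 of 19 alternatives.

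Of the 3 enzymes of serine synthesis, *PSAT1* alone passed the test. It was at 475, 488 and 503 FPKM in scramble, 532, 543 and 539 with shRNA1 and 517, 537 and 533 with shRNA2, higher in 6 of 6 knockdown libraries. Its difference of 0.13 (SE 0.027, adjusted p = 0.0142) turned to −0.02 under quantile normalization, was 0.07 (adjusted p = 0.112) with the length trend removed and did not pass without scramble replicate 1 or 2 (adjusted p = 0.0690 and 0.0620). *PHGDH*, the first enzyme of the pathway, was at 183 ± 4.21 FPKM in scramble, 188 ± 1.09 with shRNA1 and 179 ± 5.44 with shRNA2, and *PSPH*, the last, at 30.3 ± 0.727, 32.5 ± 0.933 and 31.0 ± 0.318. Neither passed the test in knockdown (differences of 0.00 and 0.07, adjusted p = 0.936 and 0.190).

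*MTHFD2*, which follows *SHMT2* in mitochondrial folate metabolism, was at 9.77, 11.2 and 10.8 FPKM in scramble, 11.7, 11.7 and 11.1 with shRNA1 and 12.6, 12.1 and 11.7 with shRNA2. Only shRNA1 replicate 3 was below a scramble library. The difference was 0.15 in knockdown (SE 0.047, adjusted p = 0.0547) and 0.18 with shRNA2 (SE 0.050, adjusted p = 0.0343). The call with shRNA2 was lost without any 1 of scramble replicates 1 and 3, shRNA1 replicates 1 and 2 and the 3 shRNA2 libraries (adjusted p of 0.0530 to 0.0928). *PYCR1*, a proline enzyme, was at 148 ± 3.65 FPKM in scramble and 161 ± 2.44 and 158 ± 9.53 with the shRNAs, a difference of 0.10 (adjusted p = 0.0899). *CBS*, the first enzyme of transsulfuration, had the same transcripts listed at its own locus and at its near-identical copy on chromosome 21, and the sum was at 46.3 ± 2.71, 48.8 ± 0.790 and 49.8 ± 2.24 FPKM. The other 5, *ALDH1L2*, *PCK2*, *CTH*, *GPT2* and *ALDH18A1*, had differences of −0.03 to 0.02 in knockdown.

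Among the 8 transport genes, *SLC3A2* rose, *SLC7A1* fell and 6 did not pass the test in knockdown. *SLC3A2*, the heavy chain that carries several amino acid transporters to the membrane, was at 158, 154 and 159 FPKM in scramble, 192, 186 and 194 with shRNA1 and 189, 171 and 184 with shRNA2. All knockdown libraries were above scramble, with shRNA2 replicate 2 the lowest of them. The difference was 0.24 (SE 0.040, adjusted p = 0.00591) and passed under 19 of 19 alternatives (0.17 to 0.27). Its light-chain partners did not pass. *SLC7A5*, which imports leucine and other large neutral amino acids, was at 160 ± 3.54 FPKM in scramble, 159 ± 0.955 with shRNA1 and 160 ± 5.18 with shRNA2 (difference 0.00, adjusted p = 0.943). *SLC7A11*, which takes up cystine in exchange for glutamate, was at 7.16, 8.10 and 7.70 FPKM in scramble, 7.02, 7.78 and 7.22 with shRNA1 and 7.06, 8.72 and 6.60 with shRNA2. Its groups overlapped, and its difference was −0.05 (SE 0.075, adjusted p = 0.695).

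*SLC7A1*, which imports arginine and lysine, was at 32.1, 33.2 and 32.0 FPKM in scramble, 30.01, 29.2 and 29.2 with shRNA1 and 29.8, 29.2 and 27.1 with shRNA2. Every knockdown library was below every scramble library. The difference was −0.15 (SE 0.035, adjusted p = 0.0178), and it was −0.06 (adjusted p = 0.265) with the length trend removed and did not pass without scramble replicate 1 or 2 (adjusted p = 0.0569 and 0.0846). *SLC1A4*, a carrier of alanine, serine and cysteine, was at 15.3, 15.1 and 15.2 FPKM in scramble, 14.5, 15.6 and 14.9 with shRNA1 and 13.995, 13.8 and 13.5 with shRNA2. The shRNA2 libraries were below all others, a difference of −0.13 from scramble (SE 0.030, adjusted p = 0.0167) that did not pass with the length trend removed (adjusted p = 0.0588), without scramble replicate 1 (adjusted p = 0.0562) or without shRNA2 replicate 3 (adjusted p = 0.0529). Of the other 3, the glutamine carrier *SLC1A5* was higher in all knockdown libraries by 0.06 without passing (adjusted p = 0.161). *SLC38A2*, a further neutral amino acid carrier, and *XPOT*, which exports tRNA from the nucleus, had differences of −0.04 and 0.00 with overlapping groups.

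Of the kinases, feedback genes and stress outputs, 8 were tested, *PPP1R15A* and *TRIB3* rose and 6 did not pass. *PPP1R15A* was at 31.2, 29.2 and 30.1 FPKM in scramble, 41.4, 41.1 and 41.0 with shRNA1 and 35.1, 36.5 and 36.8 with shRNA2. It rested on 2559 to 4031 fragments per library, a counting error of at most 1.98%, and the 3 groups did not overlap. Its difference of 0.34 (SE 0.061, adjusted p = 0.00747) passed under 19 of 19 alternatives (0.30 to 0.37). *TRIB3*, a pseudokinase induced by ATF4 that dampens its activity, was at 55.9, 55.7 and 55.4 FPKM in scramble, 61.1, 62.4 and 62.9 with shRNA1 and 65.3, 61.9 and 64.7 with shRNA2. All knockdown libraries were higher than scramble, by 0.18 (SE 0.028, adjusted p = 0.00492), also under 19 of 19 alternatives.

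*CHAC1*, which degrades glutathione and is a known target of the program, was at 26.1, 24.2 and 26.8 FPKM in scramble, 29.02, 28.7 and 27.4 with shRNA1 and 27.7, 26.1 and 28.9 with shRNA2. The groups overlapped through shRNA2 replicate 2, and the difference was 0.12 (SE 0.044, adjusted p = 0.0856). Without that library it was 0.14 (adjusted p = 0.0340), and with the length trend removed 0.03. The kinase *EIF2AK3* was at 2.92, 2.75 and 3.11 FPKM in scramble, 3.12, 2.94 and 3.09 with shRNA1 and 2.72, 3.00 and 2.99 with shRNA2. *EIF2AK4* was at 24.8, 25.6 and 24.8 FPKM in scramble, 25.3, 25.1 and 24.5 with shRNA1 and 24.7, 26.6 and 23.2 with shRNA2. For neither kinase did the groups separate, and their differences were 0.02 (SE 0.041) and −0.01 (SE 0.039). *STC2*, a secreted hormone, was at 18.6 ± 0.341 FPKM in scramble, 19.6 ± 0.175 with shRNA1 and 19.9 ± 0.737 with shRNA2, higher in 6 of 6 knockdown libraries by 0.08 (adjusted p = 0.0703). *DDIT4* and *SESN2*, both of which restrain mTORC1, had differences of 0.07 and 0.06 (adjusted p = 0.153 and 0.451).

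Each shRNA was then compared with scramble. These comparisons share the scramble libraries, so like values in both are given side by side and not as independent support. With shRNA1, 9 genes rose and 1 fell, where 11.7% and 7.19% of all tested genes did. With shRNA2, 10 rose and 2 fell, where 15.3% and 11.4% did. By the study's criteria 4 genes passed with shRNA1 and 1, *ATF3*, with shRNA2, against 3.6% and 4.72% of all genes. *PPP1R15A* was 36.4% above the scramble mean with shRNA1 and 19.75% with shRNA2, *DDIT3* 36.2% and 15.5%, *ATF3* 31.3% and 25.9%, and *SLC3A2* 21.45% and 15.6%. *ASNS* was 12.6% and 18.8% above it, *SHMT2* 12.3% and 16.6%, *TRIB3* 11.6% and 14.99%, and *PSAT1* 10.1% and 8.22%, with a difference of −0.04 with shRNA2 under quantile normalization. These 8 rose with both shRNAs, and *SLC7A1* fell with both, by 0.13 (adjusted p = 0.0490) and 0.17 (adjusted p = 0.0155). *ATF4* rose with shRNA1 (0.19, SE 0.033, adjusted p = 0.0106), and its difference with shRNA2 was 0.10 (adjusted p = 0.0641). *CEBPG* and *MTHFD2* rose and *SLC1A4* fell with shRNA2 without passing with shRNA1. No gene passed in opposite directions, and 22 passed with neither. Passing with both shRNAs was not counted over all tested genes, so these counts describe the list only. With shRNA1 the call of *SLC7A1* was lost under 10 of 19 alternatives (−0.03, adjusted p = 0.555 with the trend with transcript length removed). That of *ASNS* was lost under 8 (0.08, adjusted p = 0.225 under quantile normalization) and that of *PSAT1* under 8 (0.01, adjusted p = 0.946 under quantile normalization), while *TRIB3* lost it under 2. With shRNA2 the call was lost under 3 for *SLC7A1*, 2 for *DDIT3* and, beside the change of sign, 5 for *PSAT1*. *ATF3*, *PPP1R15A*, *SLC3A2* and *SHMT2* passed with each shRNA under 19 of 19. The shRNA1 count of 10 was 6 without shRNA1 replicate 3, where 7.06% of all genes passed, against 18.8% with all libraries. With the length trend removed 10 genes rose and 0 fell with shRNA2 (limma, adjusted p under 0.05), where 23.4% of all genes passed, against 26.7% without the removal.

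**Figure D3:**
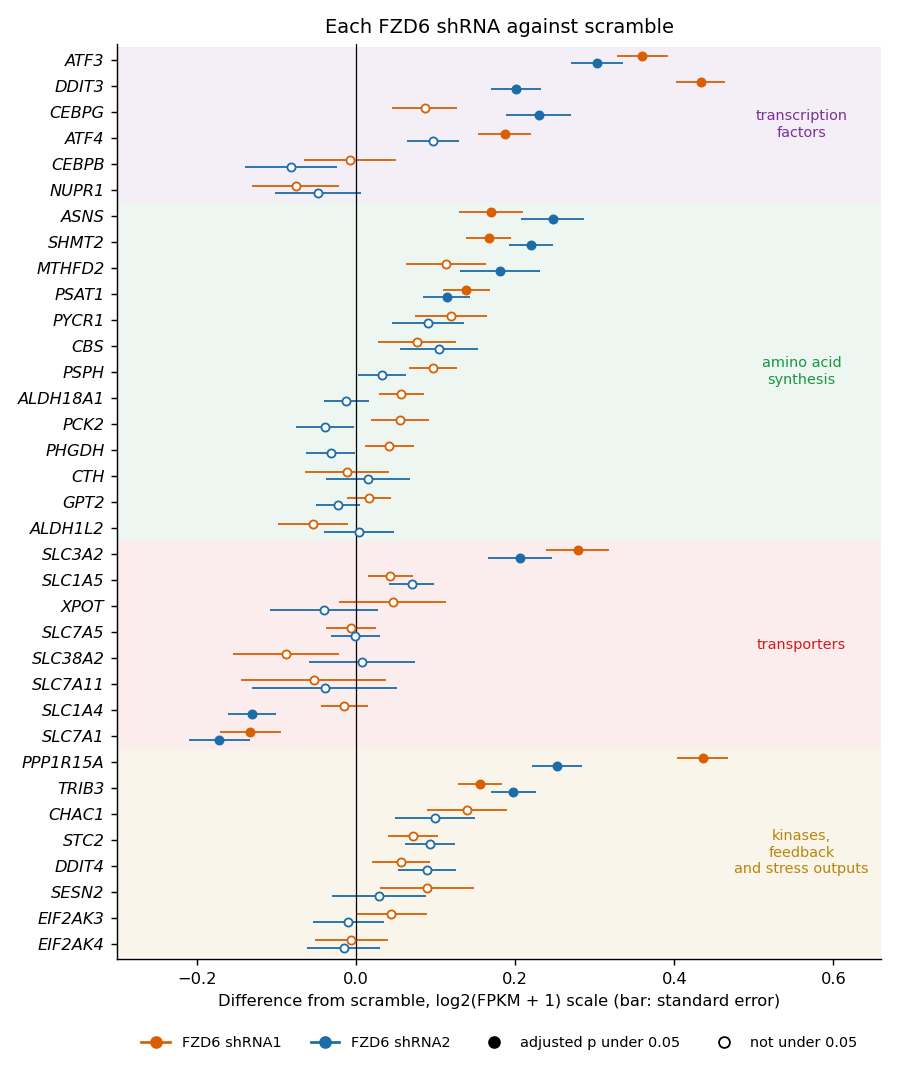
Difference from scramble of each of the 35 tested genes with shRNA1 (orange) and shRNA2 (blue) on the log2(FPKM + 1) scale, with standard errors, in 4 role groups (filled: adjusted p under 0.05). *DDIT3* and *PPP1R15A* reach 0.43 and 0.44 with shRNA1 and 0.20 and 0.25 with shRNA2, while most synthesis and transport genes lie within 0.1 of 0.

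The difference between the shRNAs was tested directly. By limma, 2 of the 35 genes were lower with shRNA2 than with shRNA1, *DDIT3* by −0.23 (SE 0.031, adjusted p = 0.00626) and *PPP1R15A* by −0.18 (SE 0.032, adjusted p = 0.0172), where 4.79% of all genes were lower. None was higher (0 at the adjusted threshold, 1 at an unadjusted p under 0.05, 0 by the study's criteria), where 1.92% of all genes were, and 0 of the 35 met the study's criteria in either direction, against 2.14% of all genes. *FZD6* itself was lower with shRNA2 by −0.25 (SE 0.050, adjusted p = 0.0273). Of the other genes that rose with both shRNAs, *ASNS*, *SHMT2* and *TRIB3* had the higher mean with shRNA2. *ATF3*, *SLC3A2* and *PSAT1* had it with shRNA1, and none of these passed here. A relation to the *FZD6* level was not tested. *PPP1R15A* did not pass without shRNA1 replicate 1, 2 or 3 (adjusted p = 0.0708, 0.0663 and 0.0623) or without shRNA2 replicate 1 (adjusted p = 0.0514), whereas *DDIT3* passed under 19 of 19 alternatives. The difference of *ATF4* between shRNAs was −0.09 (adjusted p = 0.157) and that of *CEBPG* 0.14 (adjusted p = 0.0840), neither of them past the threshold. With libraries centred on their median, or with the length trend removed, 1 gene was higher and 2 were lower with shRNA2, where 7.11% and 9.49% of all genes passed, and in the latter setting the higher one was *CEBPG* (0.15, adjusted p = 0.0219).

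A further 60 genes of the pathway were counted, of which 56 were tested. In knockdown 12 rose, 2 fell and 42 did not pass, 25% passing against 20.6% of all tested genes. The eIF2 branch holds eIF2 and eIF2B subunits, kinases, phosphatase and activators. Of its 15 tested genes, 6 were higher and 1 lower, where 13.5% and 7.1% of all tested genes were. *GCN1*, which activates the kinase encoded by *EIF2AK4* at stalled ribosomes, was the one that fell, at 26.1, 27.2 and 26.0 FPKM in scramble, 21.8, 21.1 and 21.5 with shRNA1 and 21.2, 21.6 and 18.8 with shRNA2. All 6 knockdown libraries were lower, by −0.32 (SE 0.047, adjusted p = 0.00395), the only one of the 60 that passed with at least a 1.2-fold change in knockdown. Chosen after their values were seen, the 6 that rose were *EIF2S1* (0.19) and *EIF2S3* (0.10), subunits of eIF2, *EIF2B2* (0.14), *EIF2B3* (0.18) and *EIF2B5* (0.16), subunits of its exchange factor eIF2B, and *EIF2A* (0.21), a separate initiation factor. Of 41 tested partners and further targets of ATF4 and CHOP, 6 rose and 1 fell, beside the same 13.5% and 7.1%. Their median difference was 0.00. *PYCR3*, a proline enzyme, and *GADD45A*, a stress gene, rose by 0.22 and 0.21, and *PC*, the carboxylase that makes oxaloacetate, fell by 0.18, also named after their values were seen. Between the shRNAs, 3 of the 56 genes were lower with shRNA2, where 4.79% of all tested genes were. Chosen after their values were seen, these were *TXNIP* (−0.27, adjusted p = 0.0423), *MAP1LC3B* (−0.18, adjusted p = 0.00918) and *SQSTM1* (−0.11, adjusted p = 0.0465).

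Differences in knockdown moved with transcript length. Over the 12176 tested genes with a length (97.3%), Spearman's rho of length and difference was −0.443, and over the 35 listed genes it was −0.595. These are descriptions over genes, which share the same 9 libraries and are not independent replicates. The listed genes had a median length of 2588 bases and all tested genes of 2661.5. *SLC7A1*, the gene that fell, is 7347 bases long, *GCN1*, which fell as well, 8675, while *DDIT3* is 942 bases long, *ATF4* 1420 and *CHAC1* 1425. *SLC7A11* (9645 bases) and *ALDH1L2* (7547) are long too, and their differences of −0.05 and −0.03 did not pass. *PPP1R15A*, which rose most, is 2378 bases long. With each library's trend with length removed, 7 of the 35 genes rose in knockdown and 0 fell (limma, 0 lower at an adjusted p under 0.05), with 12.2% of all genes passing. *ATF3* (0.26), *PPP1R15A* (0.30), *SLC3A2* (0.18), *SHMT2* (0.15) and *TRIB3* (0.14) still passed, and *MTHFD2* (0.17, adjusted p = 0.0410) and *STC2* (0.13, adjusted p = 0.0132) passed there in addition. *DDIT3* was 0.20 (adjusted p = 0.110) in knockdown, 0.31 (adjusted p = 0.00425) with shRNA1 and 0.09 (adjusted p = 0.117) with shRNA2, and its difference between the shRNAs stayed at −0.22 (adjusted p = 0.00969). The part of length in the other calls was not tested further.

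**Figure D4:**
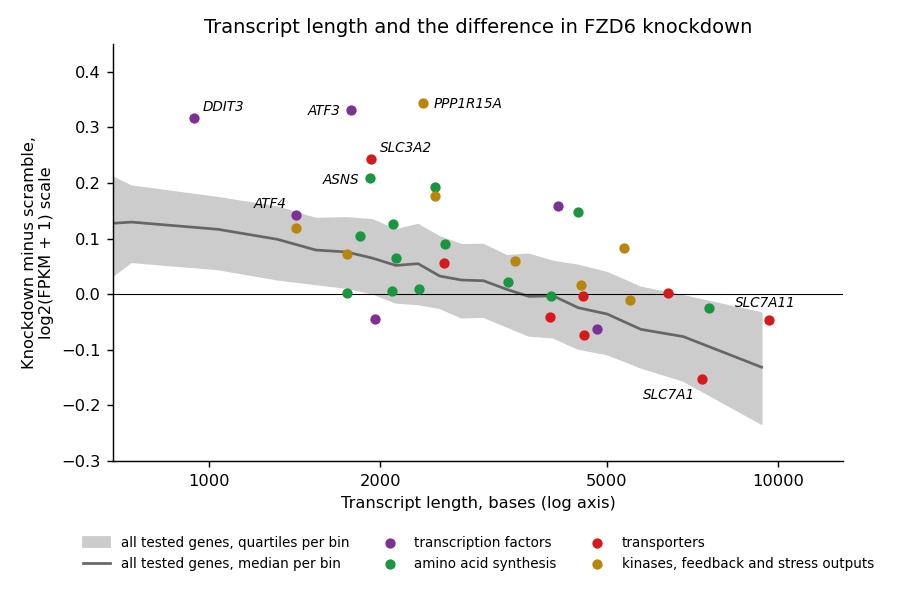
Difference in knockdown against transcript length (log axis) for the 35 tested genes, colored by role, over the median (line) and the range between the quartiles (grey band) of all tested genes in 20 length bins (genes shorter than the axis shows are left out of view). *ATF3*, *PPP1R15A*, *DDIT3*, *SLC3A2* and *ASNS* lie above the band, while *SLC7A1* and *SLC7A11* lie within or beside its falling end.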

How the data were processed

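RNA-seq tables of 9 DU145 libraries were used, 3 each of scramble, shRNA1 and shRNA2, grouped by their labels. The authors prepared stranded mRNA libraries, aligned the reads (STAR) and estimated FPKM (Cufflinks), and versions are not given in the sources used here. The deposited FPKM and their confidence bounds are listed per RefSeq transcript at loci of the human build hg38, which the submitters' processing notes name, while the methods name mm10. FPKM are scaled for library size and length, so no count model was fitted.

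Of 73240 accessions, 72645 matched a gene of the RefSeq table of GRCh38.p14, and the other 595 held 0.387% to 0.431% of a library's FPKM. FPKM were summed per gene, and 42 genes with an entry not marked OK were left out. Genes averaging 1 FPKM or more over the libraries (12509) were tested as log2(FPKM + 1) by limma (3.58.1, under R 4.3.3), p-values were adjusted over all of them (Benjamini-Hochberg) and the threshold was 0.05. Fold changes on this scale understate those of low genes. Knockdown was compared with scramble in a model of 2 groups, and a model of 3 groups gave the contrasts of each shRNA with scramble and of the shRNAs with each other. The study's criteria used its test for 2 groups on log2 values. Here they were applied to log2(FPKM + 1) of the summed genes that were tested. In knockdown 138 rose and 223 fell by them, fewer in each direction than the study reports. A count of libraries on 1 side is given without a test. Depth was estimated from the bounds of single-entry genes, which cover counting error only. Lengths came from GENCODE v29, and trends were fitted by lowess (span 0.3). The motif search and the plots used Python 3.11.15 with numpy 2.4.6, pandas 2.3.3 and matplotlib 3.10.9.

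The genes and lists were chosen with earlier results of these data known. Values in every library are given for *ATF4*, *ATF3*, *DDIT3*, *ASNS*, *CHAC1*, *TRIB3*, *SLC7A11*, *PSAT1*, *EIF2AK3* and *EIF2AK4* and for every listed gene that passed in any of the 4 comparisons, and further pathway genes are named when they passed in knockdown against scramble with a change of at least 1.2-fold, or else as chosen after their values were seen. Alternatives were a pseudocount of 0.1, no filter, a filter of 5 FPKM, median centring, quantile normalization and removal of the length trend. Others were the replicate number as a block, this block with the length trend removed, primary chromosomes only, genes whatever their status and leaving out each library. The study's criteria were an alternative for the counts of genes only. They are not among the alternatives given for single genes, and *SHMT2*, *SLC3A2* and *TRIB3* did not meet them in knockdown. The *CBS* locus alone was added after seeing the data. The sequences of the *FZD6* hairpins and 2 genes of the marker lists are not reported here.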

Additional observations from a re-analysis of the deposited data

Results flagged for a closer look

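The difference between the shRNAs was itself past the threshold for *DDIT3*, at −0.23 for shRNA2 minus shRNA1 (limma, adjusted p = 0.00626), and for *PPP1R15A*, at −0.18 (adjusted p = 0.0172). Over the 6 knockdown libraries, 4 of 35 tested genes had 1 library far from the other 5 by Dixon's test, where chance gives about 1 in 20 (1.75 genes). These were *CBS* at 52.3 FPKM in shRNA2 replicate 1, against 48.0 to 49.6 in the other 5, and *PYCR1* at 147 FPKM in shRNA2 replicate 2, against 158 to 165. *SLC38A2* was at 61.0 FPKM in shRNA2 replicate 2, against 50.6 to 54.0, and *SLC7A1* at 27.1 FPKM in shRNA2 replicate 3, against 29.2 to 30.01. All 4 lie in shRNA2 libraries, and the cause was not tested. The rate of 1 in 20 is for libraries of 1 group, whereas these 6 mix both shRNAs. The share over all tested genes was not counted, so 4 against 1.75 is a description only.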

How the results depend on the processing

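Of the 35 genes, 10 passed in knockdown, 10 with shRNA1, 12 with shRNA2 and 2 between the shRNAs. With the replicate block and the length trend removed 6 passed in knockdown and 6 with shRNA1, where 8.86% and 10.5% of all genes passed (20.6% and 18.8% without these corrections), and by the study's criteria 3, 4, 1 and 0 passed. Leaving out 1 library gave 5 to 12 in knockdown (5 without scramble replicate 1 and 6 without replicate 2), 6 to 11 with shRNA1 (6 without shRNA1 replicate 3), 9 to 14 with shRNA2 and 1 to 2 between them (1 without any shRNA1 library or without shRNA2 replicate 1). The other settings kept the counts within 1.5 times. Among single genes, *PSAT1* turned to −0.0165 in knockdown and −0.0384 with shRNA2 under quantile normalization, and with the length trend removed, with or without the block, *SLC7A11* turned to 0.0885 and *EIF2AK4* to 0.0396. Leaving out 1 library gave −0.0152 to 0.0508 for *EIF2AK3* and −0.029 to 0.00838 for *EIF2AK4*, below the threshold throughout. Values under alternatives were tallied for the calls of the main fits. In knockdown, *CBS* and the genes given in every library whatever their values were tallied too. Of these values, 647 kept direction and side of the threshold, 84 no longer passed, 1 newly passed (*CHAC1* without shRNA2 replicate 2) and 9 changed sign. New calls of other genes, such as *MTHFD2* and *STC2* in knockdown with the length trend removed, are outside this tally. Same-numbered libraries of different groups deviated together little (r of −0.071 to 0.111 over 9 pairs, 1 over 0.1). For these low r the numbers were not taken as pairs. The same number correlated best in 11 of 18 cases, more often than a random pick among 3 libraries gives, so pairing is not excluded. With the replicate block alone, 10, 10, 13 and 2 genes passed. Counts in this paragraph without a share of all genes beside them describe the list only. The *CBS* locus alone, added after seeing the data, left its result below the threshold. A sum of *CBS* and its copy was planned as an alternative and is the value reported, because both loci list the same accessions. Depth limits *GDF15*, at fewer than 38 fragments per library, and *NUPR1*, near 1 FPKM.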
